A study of Mus musculus with 12 samples.

Results

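The SLAM family was examined at the RNA level in CD4+ T cells of lupus-prone and control mice. The members were the 8 receptor genes Slamf1, Slamf6, Slamf7, Slamf8, Slamf9, Cd48, Cd84 and Ly9 and the adaptor gene Sh2d1a, which were taken from the table by symbol, 9 of 35275 genes in all. RNA-Seq libraries were made from 12 female mice of 9 to 12 weeks of age, 1 library per mouse and 3 mice in each of 4 groups. B6 mice (C57BL/6J) and SLE123 mice were either left untreated or given 5 intraperitoneal injections of 100 μg of anti-CD45RB (clone MB23G2, against a form of the CD45 phosphatase) between day 0 and day 7. SLE123 is a congenic strain on the B6 background in which 3 regions, Sle1, Sle2 and Sle3, come from the lupus-prone NZM2410 strain (alleles Sle1 NZM2410/Aeg, Sle2 NZM2410/Aeg and Sle3 NZM2410/Aeg). The strain therefore differs from B6 at many genes besides the SLAM cluster, and an effect of the cluster's own alleles cannot be told apart from an effect of the other regions. The cells had been purified by negative magnetic selection, and the methods also describe a further sort into CD25+ and CD25- cells that no sample title names.

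SLAM receptors are immunoglobulin-like proteins of blood cells, and most of them bind their own kind on a neighbouring cell. In T cells their cytoplasmic tails carry a tyrosine switch motif (ITSM) that recruits SAP, the small SH2 adaptor encoded by Sh2d1a, which in turn brings in the kinase Fyn. SAP is needed for stable contacts between T and B cells and so for T follicular helper (Tfh) function in the germinal center. The mouse SLAM cluster lies within Sle1, where inherited differences in its genes have long been studied as a source of lost B and T cell tolerance.

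The switch motif is shown first, since the members differ in how many copies they hold. A match to its sequence does not show that a given receptor binds SAP, which was not tested. The coding sequence of the longest complete transcript of each member in GENCODE M21 was searched for codons of threonine, any residue, tyrosine, any 2 residues and then valine or isoleucine within the last 130 residues. Capitals mark the 18 bases of the motif, the flanks of up to 12 bases are in lower case, the sequences are on the coding strand, and the GRCm38 positions are those of the capitals.
Slamf1, first motif, chr1:171792339-171792356, plus strand: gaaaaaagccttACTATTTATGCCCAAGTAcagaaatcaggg
Slamf1, second motif, chr1:171799588-171799605, plus strand: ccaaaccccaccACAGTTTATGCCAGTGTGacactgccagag
Slamf6, first motif, chr1:171939437-171939454, plus strand: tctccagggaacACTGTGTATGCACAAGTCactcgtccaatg
Slamf6, second motif, chr1:171941664-171941681, plus strand: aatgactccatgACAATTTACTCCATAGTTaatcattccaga
Cd84, first motif, chr1:171884605-171884622, plus strand: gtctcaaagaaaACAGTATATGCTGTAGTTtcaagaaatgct
Cd84, second motif, chr1:171885601-171885618, plus strand: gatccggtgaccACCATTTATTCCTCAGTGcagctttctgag
Ly9, first motif, chr1:171593912-171593929, minus strand: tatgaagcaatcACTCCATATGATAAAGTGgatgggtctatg
Ly9, second motif, chr1:171593438-171593455, minus strand: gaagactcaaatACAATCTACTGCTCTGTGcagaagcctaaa
Slamf7, only motif, chr1:171636327-171636344, minus strand: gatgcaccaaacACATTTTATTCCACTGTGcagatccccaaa
Each of these motifs lies within 1 coding exon. Slamf1, Slamf6, Cd84 and Ly9 hold 2 of them and Slamf7 holds 1, while none was found there in Slamf8, Slamf9, Sh2d1a or Cd48, whose protein is held to the membrane by a lipid anchor. Slamf8 and Cd48 each hold 1 match further upstream, outside the window searched. All of these letters are the reference sequence, which is that of B6, and the NZM2410 alleles of SLE123 were not read here. Fragments of alleles that differ from the reference may map less well, and the part of this in each strain difference given here was not tested. Both groups of a treatment comparison carry the same alleles.

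The libraries held 13563594 to 23642949 fragments, and the values are FPKM, fragments per kilobase of transcript and scaled to the mapped fragments of the library, so that levels can be compared between genes per unit of length. T cell genes were abundant in every library, with a summed level of 1687 to 2154 FPKM over 8 markers. Markers of other cells were present too and differed between the groups: the summed level of 5 plasma cell markers was 32.5 to 159 FPKM in the 6 B6 mice and 959 to 4789 FPKM in the 6 SLE123 mice, and fragments of immunoglobulin genes made up 0.0895% to 0.336% of a B6 library and 2.51% to 12.2% of an SLE123 library. The summed level of 6 myeloid markers was 39.0 to 113 FPKM in treated B6 mice and 8.34 to 14.4 FPKM in untreated B6 mice. A pair of libraries stood apart from their group. Untreated SLE123 replicate 3 had the highest B cell sum (216 FPKM over 6 markers, against 57.0 and 81.4 FPKM in the others), and treated SLE123 replicate 1 had the lowest plasma cell sum of its strain. Liver transcripts, summed over 5 markers, were at 39.2 to 46.5 FPKM in all 6 B6 libraries and at 44.1 FPKM in this SLE123 library, against at most 0.368 FPKM in the other 5, and all 5 markers were called lower in untreated SLE123 than in untreated B6 mice. The part of liver RNA in the strain differences was not tested. In bulk RNA, fewer cells of a type and less RNA per cell cannot be told apart.

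The receptors differed widely in level. Cd48, Cd84, Slamf6 and Ly9 were between 50.4 and 191 FPKM in every mouse, Slamf1 and Slamf7 between 6.69 and 30.3 FPKM, Sh2d1a between 14.6 and 27.8 FPKM, Slamf9 at most 5.64 FPKM and Slamf8 at most 0.687 FPKM. For the tests, limma was fitted to log2(FPKM + 1) of the 13115 genes that averaged 0.5 FPKM or more, differences are given on that log2 scale, and a gene was called where its p-value, adjusted by the Benjamini-Hochberg method, fell under 0.05. Of the 9 members, 8 passed this filter. Slamf9 passed it only through SLE123, so its strain difference is given as a description, with no test, and the counts between strains leave it out. Slamf8 did not pass and was compared separately.

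**Figure D1:**
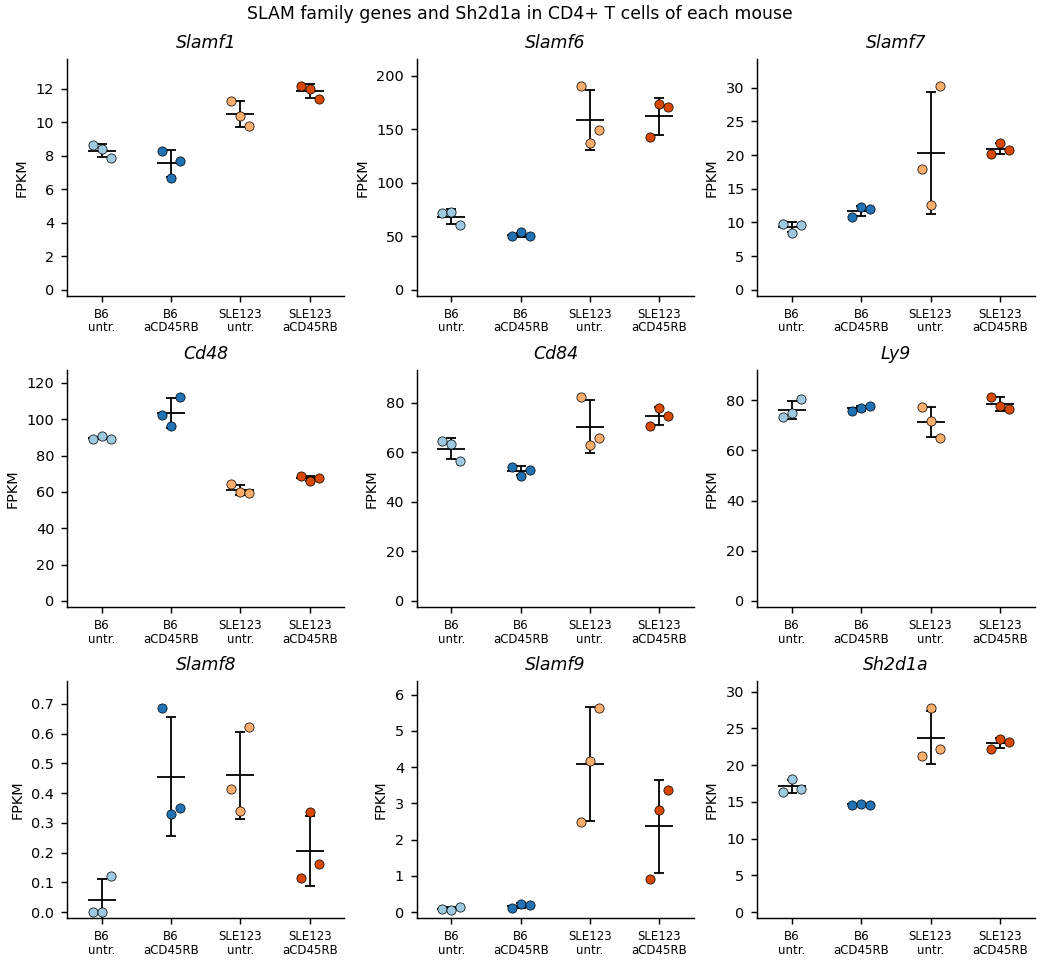
FPKM of the 9 genes (vertical axes, each with its own scale) in each mouse, by group (horizontal axes; untr., untreated; aCD45RB, anti-CD45RB); points are mice, horizontal bars the mean and vertical bars the SD of 3 mice. Slamf6 is at least 137 FPKM in every SLE123 mouse and at most 72.3 FPKM in every B6 mouse, Cd48 is lower in SLE123, and Ly9 overlaps across groups.

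Between untreated mice of the 2 strains, Slamf6 stood out among the receptors expressed at a high level. Of the 7 members that remain without Slamf9, 5 were called (71.4%), against 42.9% of all genes tested, with 4 higher in SLE123 (background 22.8%) and 1 lower (background 20.1%). The median difference over the 7 was 0.30 on the log2 scale, against -0.025 over all genes tested. These percentages rest on few genes, which were chosen with earlier results of these data known. Of the 5, Slamf6 and Cd48 were called with any 1 mouse left out, while Slamf1, Slamf7 and Sh2d1a each lost the call without 1 or more of the untreated B6 mice. Without 1 of these B6 mice, the share of all genes called also fell, to between 28% and 30%.

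Slamf6 (Ly108), a self-binding receptor with 2 of the motifs shown above, measured 191, 137 and 149 FPKM in the 3 untreated SLE123 mice and 72.1, 72.3 and 60.2 FPKM in the 3 untreated B6 mice. The groups did not overlap. The ratio of the means was 2.33, and the difference was 1.20 on the log2 scale (SE 0.14, adjusted p = 0.000658). An antisense gene, Gm37065, lies across the Slamf6 locus without sharing exonic bases with it.

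Slamf7, a receptor best known from NK cells and plasma cells, measured 18, 12.6 and 30.3 FPKM in untreated SLE123 mice and 9.85, 8.48 and 9.65 FPKM in untreated B6 mice. The highest value was that of the SLE123 mouse with the highest plasma cell and B cell sums. The difference was 0.96 (SE 0.27, adjusted p = 0.0257). Without that mouse it was 0.64 (adjusted p = 0.0249), and without any 1 of the B6 mice, or with no filter, the call was lost (adjusted p = 0.0659 to 0.0856 and 0.091). Of the 4577 exonic bases of Slamf7, 423 are shared with Gm37787 on the other strand. Since the strand setting of the counting is not stated, reads of the 2 genes over these bases cannot be told apart.

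Slamf1 (CD150), the founding member of the family, measured 11.3, 10.4 and 9.80 FPKM in untreated SLE123 mice and 8.63, 8.42 and 7.87 FPKM in untreated B6 mice. The groups did not overlap, yet the difference was small at 0.30 (SE 0.09, adjusted p = 0.0277). It was -0.05 after rescaling to TPM, which moved the median of all genes to -0.38, so that Slamf1 was 0.33 above the median on either scale. Without any 1 of the B6 mice its adjusted p was 0.0711 to 0.106.

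Cd48, the lipid-anchored receptor that binds CD2 and CD244, was the only member called lower in SLE123. It measured 64.3, 59.9 and 59.4 FPKM in untreated SLE123 mice and 89.2, 90.6 and 89.3 FPKM in untreated B6 mice. The spread within each group was small beside the gap, and the difference was -0.55 (SE 0.07, adjusted p = 0.00109).

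Cd84, a self-binding receptor of T and B cells, measured 82.5, 62.8 and 65.8 FPKM in untreated SLE123 mice and 64.7, 63.4 and 56.6 FPKM in untreated B6 mice. These ranges overlapped, and Cd84 was not called (0.18, 95% confidence interval -0.10 to 0.46, adjusted p = 0.249). Ly9 (CD229), the receptor with the longest protein of the family at 654 residues, was called in none of the 5 comparisons. It ranged from 65.1 to 77.1 FPKM in untreated SLE123 mice and from 73.2 to 80.3 FPKM in untreated B6 mice, with a difference of -0.10 (interval -0.30 to 0.11, adjusted p = 0.413). Quantile normalization and rescaling to TPM, which both moved the median of all genes below 0, called Ly9 lower in SLE123 (-0.25, adjusted p = 0.0324, and -0.48, adjusted p = 0.0269), and with the median of all genes subtracted these differences were -0.09 and -0.10.

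Sh2d1a, which encodes SAP and lies on the X chromosome outside the cluster, measured 21.2, 27.8 and 22.2 FPKM in untreated SLE123 mice and 16.4, 18.1 and 16.8 FPKM in untreated B6 mice. The difference was 0.44 (SE 0.11, adjusted p = 0.0171), and 0.08 after rescaling to TPM (adjusted p = 0.648), which is 0.46 above the median of all genes. Without B6 replicate 3 or replicate 5 its adjusted p was 0.0686 and 0.0615. Of the 5505 exonic bases of Sh2d1a, 1465 are shared with Tenm1 on the other strand, which was at most 0.0193 FPKM (4 fragments) in any mouse.

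**Figure D2:**
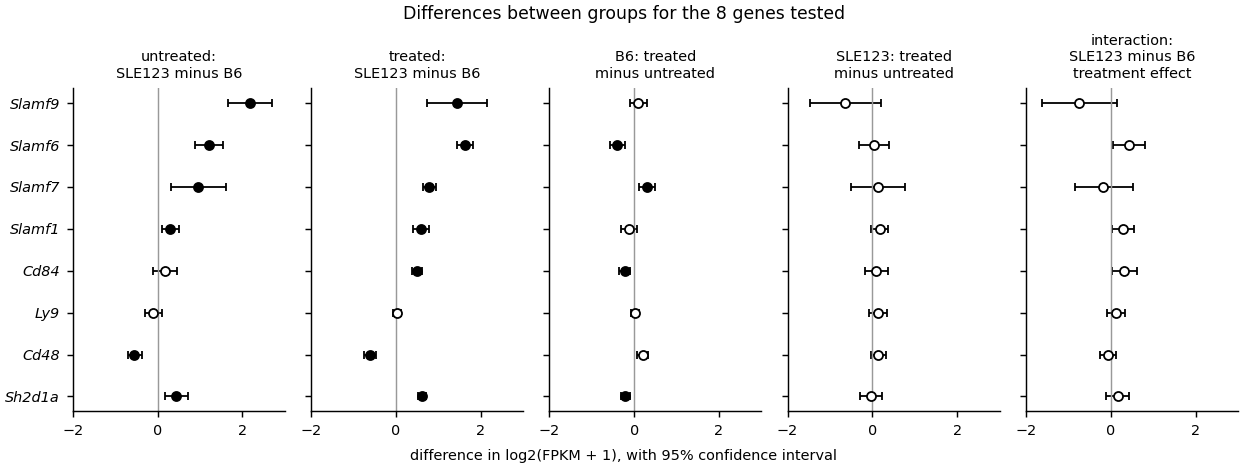
Difference between groups in log2(FPKM + 1) (horizontal axes) for the 8 genes tested (vertical axis), in the 4 pairwise comparisons and for the interaction; points are estimates, bars 95% confidence intervals, and filled points have an adjusted p-value under 0.05. Slamf6, Slamf7, Slamf9, Slamf1 and Sh2d1a lie to the right and Cd48 to the left of 0 in both strain comparisons, and no gene is filled within SLE123 or for the interaction. The strain differences of Slamf9, which passed the filter only through SLE123, are a description.

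Slamf9 and Slamf8, both without a switch motif in the tail, were the receptors with the lowest levels, and their values are given beside markers of other cells. Slamf9 measured 2.49, 4.16 and 5.64 FPKM in untreated SLE123 mice and 0.0944, 0.0421 and 0.142 FPKM in untreated B6 mice. The B6 values rest on 1 to 3 fragments per library and the SLE123 values on 54 to 175. Summed over the mice, 331 fragments in SLE123 stood against 6 in B6, a ratio of 47.2 per total fragments (exact 95% interval 21.4 to 129, counting error only). The fitted difference was 2.17 and, with a pseudocount of 0.1, 4.40, so its size depends on the pseudocount.

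In treated SLE123 replicates 1, 2 and 3, Slamf9 was 0.905, 2.83 and 3.36 FPKM beside plasma cell sums of 959, 1761 and 1654 FPKM. In untreated SLE123 replicates 1, 2 and 3, it was 2.49, 4.16 and 5.64 FPKM beside sums of 1834, 2698 and 4789 FPKM. Among these 6 mice, those with the highest and the lowest Slamf9 were also those with the highest and the lowest plasma cell sum. All 5 plasma cell markers were called higher in SLE123 in untreated and in treated mice, and their part in the Slamf9 difference was not tested.

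Slamf8 (BLAME), a receptor known from myeloid cells, was listed at 0, 0 and 0.122 FPKM in untreated B6 mice, where 3 fragments would have given 0.0813 to 0.0914 FPKM. It measured 0.687, 0.329 and 0.350 FPKM in treated B6 mice, 0.415, 0.341 and 0.622 FPKM in untreated SLE123 mice and 0.116, 0.338 and 0.160 FPKM in treated SLE123 mice. These values rest on 0 to 30 fragments each. Treated and untreated B6 mice did not overlap (difference 0.48, two-sided exact permutation p = 0.1), and neither did untreated SLE123 and untreated B6 mice (0.48, exact permutation p = 0.1). With 3 mice against 3, 0.1 is the smallest p-value possible. In a limma fit without the filter, Slamf8 was called between untreated strains (adjusted p = 0.0193) and not between treated and untreated B6 mice (adjusted p = 0.0949).

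In SLE123 the order was the opposite, with treated mice lower than untreated mice (-0.28, exact permutation p = 0.1), though the nearest values of the 2 groups were 0.338 and 0.341 FPKM, or 13 fragments each. The myeloid sum was 113 FPKM in the treated B6 mouse and 74.2 FPKM in the untreated SLE123 mouse with the highest Slamf8 of their groups, against 8.34 to 14.4 FPKM in untreated B6 mice. The other groups went the other way. In treated SLE123 mice the highest sum (24.1 FPKM) was in the mouse with the lowest Slamf8 (0.116 FPKM). In untreated B6 mice the highest sum (14.4 FPKM) was in a mouse with 0 FPKM of Slamf8. Of the 6 myeloid markers, 4 were tested, and 3 were called higher in treated than in untreated B6 mice. Their part in the Slamf8 values was not tested.

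**Figure D3:**
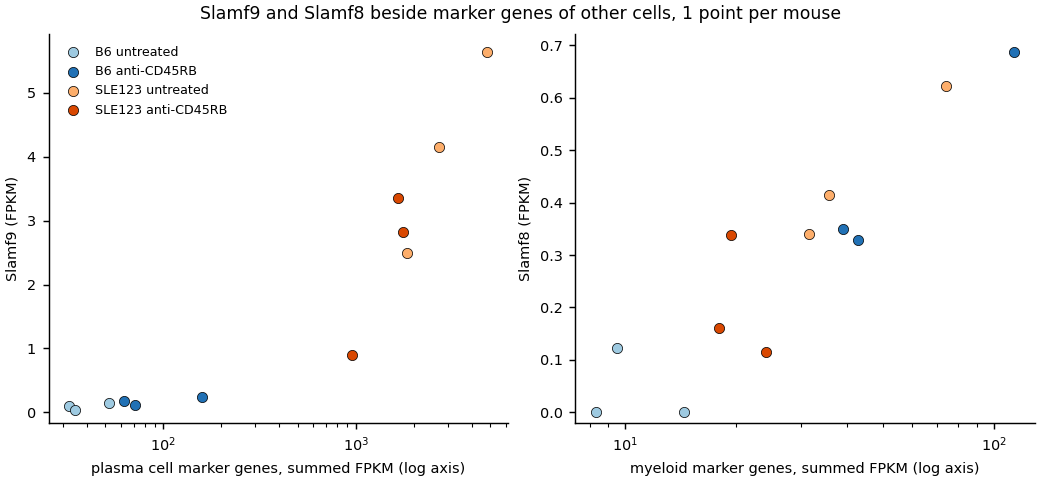
Left, Slamf9 (FPKM) against the summed FPKM of 5 plasma cell markers; right, Slamf8 (FPKM) against the summed FPKM of 6 myeloid markers; the horizontal axes are logarithmic and each point is 1 mouse, coloured by group. All B6 mice have at most 0.233 FPKM of Slamf9 and 159 FPKM of plasma cell markers, and the pair of mice with the highest Slamf8, 0.687 and 0.622 FPKM, also have the highest myeloid sums.

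The same comparison in treated mice asked whether the strains still differed after the course of antibody. It called 6 of the 7 members other than Slamf9 (85.7%), against 52.1% of all genes tested, with 5 higher in SLE123 (background 29.6%) and 1 lower (background 22.5%). The median over the 7 was 0.59, against 0.028 over all genes. The mice of this comparison are not those of the untreated comparison. Leaving out any 1 of them, the SLE123 library with liver transcripts included, called the same 6 members each time, with 42.1% to 51% of all genes.

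Slamf6 measured 142, 174 and 170.3 FPKM in treated SLE123 mice and 50.4, 53.6 and 50.4 FPKM in treated B6 mice. The lowest SLE123 value was well above the highest B6 value, the ratio of the means was 3.15, and the difference was 1.63 (SE 0.08, adjusted p = 2.8e-05). Slamf7 was 20.2 to 21.8 FPKM against 10.8 to 12.3 FPKM (0.79, SE 0.06, adjusted p = 0.000114), without the wide spread of the untreated SLE123 mice. Slamf1 was 11.4 to 12.2 FPKM against 6.69 to 8.30 FPKM (0.59, SE 0.08, adjusted p = 0.0009).

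Cd84 was 70.8 to 78.1 FPKM in treated SLE123 mice and 50.5 to 54.1 FPKM in treated B6 mice (0.50, SE 0.05, adjusted p = 0.000273), and here the groups did not overlap. Cd48 was again lower in SLE123, at 65.9 to 68.8 FPKM against 96.0 to 112 FPKM (-0.61, SE 0.06, adjusted p = 0.000282). Sh2d1a was 22.2 to 23.5 FPKM against 14.6 to 14.7 FPKM (0.61, SE 0.04, adjusted p = 7e-05).

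Slamf9 was 0.905 to 3.36 FPKM against 0.112 to 0.233 FPKM, with a fitted difference of 1.43, or 171 summed fragments against 11, again a description only. Ly9 was 76.3 to 81.4 FPKM against 75.7 to 77.7 FPKM and was not called (0.03, interval -0.06 to 0.12, adjusted p = 0.543). Slamf8 was lower on average in SLE123 (0.205 ± 0.117 against 0.455 ± 0.201 FPKM, SD, n = 3), but the groups overlapped (exact permutation p = 0.2).

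The receptor genes span 1001.9 kb of chromosome 1, from Ly9 to Slamf8 (GRCm38 chr1:171588624-172590568), and 19 other protein-coding genes lie between them. The receptors Ly9, Slamf7, Cd48, Slamf1, Cd84 and Slamf6 form a block at one end, and Slamf9 and Slamf8 lie at the far end. Of the 19 neighbours, 10 were tested. Vangl2, with a mean under 0.5 FPKM in both SLE123 groups, passed the filter only through B6 and was left out of the counts. Of the other 9, 2 were called in untreated mice (22.2%, against 42.9% of all genes), both lower in SLE123, and 4 in treated mice (44.4%, against 52.1%), 1 higher and 3 lower.

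Vangl2, a planar polarity gene, was 0.362 ± 0.0517 FPKM in untreated SLE123 and 1.19 ± 0.172 FPKM in untreated B6 mice (SD, n = 3), given as a description. The smallest adjusted p-value between untreated strains among the other neighbours was that of Pigm, an enzyme of the lipid anchor pathway (8.55 against 14.4 FPKM, -0.70, adjusted p = 0.00401). Dcaf8 followed (42.7 against 50.6 FPKM, -0.24, adjusted p = 0.0469), then Ncstn, a subunit of γ-secretase (28.8 against 33.7 FPKM, -0.22, adjusted p = 0.0561), and Gm10521 (7.93 against 10.5 FPKM, -0.39, adjusted p = 0.106). In treated mice Pex19, a peroxisome gene, was called higher in SLE123 (15.6 against 12.5 FPKM, 0.30, adjusted p = 0.00143).

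**Figure D4:**
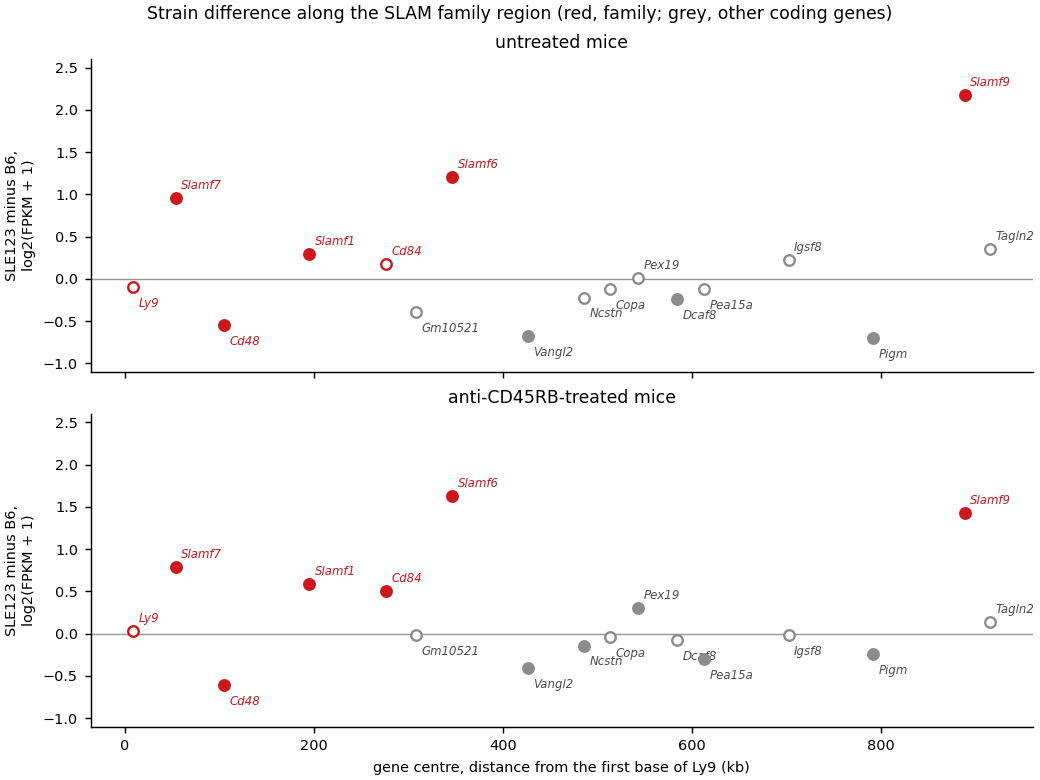
Strain difference in log2(FPKM + 1), SLE123 minus B6 (vertical axes), against the distance of each gene's centre from the first base of Ly9 in kb (horizontal axis), in untreated (top) and treated mice (bottom); red points are the 7 receptor genes tested, grey points the 10 other coding genes tested, and filled points have an adjusted p-value under 0.05. Slamf6 at 346.7 kb and Slamf9 at 888.3 kb are the 2 highest points in both panels, and the highest grey points are Tagln2 at 0.35 in untreated and Pex19 at 0.30 in treated mice. Slamf9 and Vangl2 passed the filter only through 1 strain.

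In B6 mice, anti-CD45RB moved a few members by a small amount. Of the 8 tested, 4 were called (50.0%), against 14.9% of all genes tested, with 1 higher in treated mice (background 8.74%) and 3 lower (background 6.12%). Slamf6 fell from 72.1, 72.3 and 60.2 FPKM in untreated mice to 50.4, 53.6 and 50.4 FPKM in treated mice (-0.40, SE 0.07, adjusted p = 0.0179), with no overlap. Cd84 fell from 56.6 to 64.7 FPKM to a range of 50.5 to 54.1 FPKM (-0.22, SE 0.06, adjusted p = 0.0426), and Sh2d1a from 16.4 to 18.1 FPKM to a range of 14.6 to 14.7 FPKM (-0.21, SE 0.05, adjusted p = 0.0343). Slamf7 rose from 8.48 to 9.85 FPKM to a range of 10.8 to 12.3 FPKM (0.30, SE 0.08, adjusted p = 0.0443). T cell markers moved as well: the T cell sum was 1911 to 1961 FPKM in treated and 2054 to 2103 FPKM in untreated B6 mice, with 3 of the 8 called lower, and the naive T cell sum was 1347 to 1477 against 1507 to 1578 FPKM, with 2 of the 4 called lower. The activated or memory T cell sum went the other way, at 224 to 243 against 152 to 176 FPKM. Of its 4 markers, 2 were called higher. The part of these T cell markers in the lower Slamf6, Cd84 and Sh2d1a was not tested.

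These 4 calls were close to the threshold. Between 0 and 2 members were called with any 1 mouse left out, the lowest count without treated replicate 5, untreated replicate 3 or untreated replicate 4, and 0 when the spread was estimated from the 12 mice together or when no filter was used. The share of all genes called fell as well, from 14.9% to between 5.15% and 10.6% with 1 mouse left out. It was 6.21% with the 12 mice together and 4.88% with no filter. Slamf7 rose together with markers of other cells: the NK cell sum was 37.3 to 50.0 FPKM over 4 markers in treated and 15.3 to 16.1 FPKM in untreated B6 mice, with Ncr1 at 5.35 to 6.40 FPKM against 0.259 to 0.499 FPKM. The sum of 6 B cell markers was 23.8 to 31.3 FPKM against 3.86 to 5.08 FPKM. Their part in the Slamf7 difference was not tested.

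Among the members that were not called in B6, Cd48 was 96.0 to 112 FPKM in treated and 89.2 to 90.6 FPKM in untreated mice, with no overlap (0.20, interval 0.07 to 0.33, adjusted p = 0.0544). Limma's voom method on fragments recovered from the FPKM steps called it (adjusted p = 0.0254), with 20.7% of all genes called. Limma with a filter at 1 FPKM called it too (adjusted p = 0.0495). It was not called with the 12 mice in one fit (0.0806), quantile normalization (0.109) or no filter (0.151). Slamf1 was 6.69 to 8.30 against 7.87 to 8.63 FPKM (-0.12, adjusted p = 0.342), and Ly9 differed by 0.01 (interval -0.08 to 0.11). Slamf9 was at 2 to 5 fragments in treated and 1 to 3 in untreated libraries, too few to show a difference.

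In SLE123 mice, limma and voom called none of the 8 members after anti-CD45RB. None passed at an unadjusted limma p-value under 0.05, a threshold at which the share of all genes was not counted. Over all genes tested, 0.0381% were called in this comparison. Slamf6 was 142, 174 and 170.3 FPKM in treated and 191, 137 and 149 FPKM in untreated mice, with a difference of 0.04 (interval -0.32 to 0.39). The intervals of Cd48 (-0.03 to 0.31), Sh2d1a (-0.29 to 0.22) and Ly9 (-0.07 to 0.34) held the difference measured in B6, while those of Slamf6, Cd84 (-0.18 to 0.37) and Slamf1 (-0.03 to 0.36) did not. The difference between the strains in this respect is tested as an interaction in the next paragraph. Slamf7 was 20.2 to 21.8 FPKM against 12.6 to 30.3 FPKM (0.13, interval -0.51 to 0.77), so that its spread was wider in untreated mice. Slamf9 was 0.905 to 3.36 FPKM in treated and 2.49 to 5.64 FPKM in untreated mice (-0.64, interval -1.48 to 0.20, adjusted p = 0.5).

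The difference between the treatment effects of the 2 strains was tested as an interaction over all 12 mice. Limma called none of the 8 members, against 3.64% of all genes tested. At an unadjusted p-value under 0.05 there were 3, all with a more positive effect in SLE123: Slamf6 (0.43, interval 0.05 to 0.81, adjusted p = 0.154), Cd84 (0.32, interval 0.02 to 0.61, adjusted p = 0.175) and Slamf1 (0.29, interval 0.04 to 0.54, adjusted p = 0.144). Voom called none. Untreated SLE123 replicate 1 held the highest values of its group for Slamf6, Cd84 and Slamf1, and without it Slamf6 (0.57, adjusted p = 0.0168) and Cd84 (0.43, adjusted p = 0.0106) were called. Leaving out this mouse raised the share called over all genes to 22.2%. With all 12 mice, the fall of Slamf6 and Cd84 in B6 was therefore not shown to differ from the effect in SLE123.

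The partners of the receptors in the signalling pathway were counted next. Of 21 genes, 20 were in the table by symbol and 19 were tested, of which Cd244a passed the filter only through treated B6 mice and was left out of the counts. In untreated mice 6 of the other 18 were called between strains (33.3%, against 42.9% of all genes), 4 higher and 2 lower in SLE123, and in treated mice 10 (55.6%, against 52.1%), 6 higher and 4 lower. Ptpn11, which encodes the phosphatase SHP-2 that binds SLAM tails, had the largest strain difference of the 18 on the log2(FPKM + 1) scale in untreated and in treated mice. Ptpn11 measured 70.6, 56.4 and 66.3 FPKM in untreated SLE123 mice and 20.4, 22.6 and 23.1 FPKM in untreated B6 mice (1.5, SE 0.10, adjusted p = 5.7e-05). In treated mice it was 54.1 to 68.2 FPKM against 20.8 to 22.9 FPKM (1.46, adjusted p = 5.7e-05).

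Inppl1, the lipid phosphatase SHIP-2, was 8 to 9.89 FPKM in untreated SLE123 mice and 3.28 to 3.61 FPKM in untreated B6 mice (1.12, adjusted p = 0.000242). The other genes called in both strain comparisons were Dok1 (0.49 in untreated and 0.20 in treated mice) and Sh3bp2 (0.51 and 0.42), both adaptors and both higher in SLE123. Prkcq, the kinase PKCθ that acts downstream of SAP, was lower in SLE123 (-0.56 and -0.36), as was the exchange factor Vav1 (-0.29 and -0.27). Fyn, the kinase that SAP recruits, was 180.7 ± 4.43 FPKM in treated SLE123 and 130.4 ± 2.35 FPKM in treated B6 mice (SD, n = 3, difference 0.47, adjusted p = 0.000112). In untreated mice Fyn was 156 to 184 against 139.8 to 148 FPKM and was not called (0.22, adjusted p = 0.0906). Inpp5d (0.17) was higher and Csk (-0.12) and Dok2 (-0.27) lower in treated SLE123 mice. Cd2, the partner of Cd48, was 231 to 293 FPKM in all 12 mice and was called in no comparison.

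Cd244a, the other receptor that binds Cd48 and a marker of NK and myeloid cells, is described without a test, since its mean was under 0.5 FPKM in every group but treated B6. It measured 1.92, 1.72 and 1.79 FPKM in treated B6 mice and 0.280, 0.132 and 0.264 FPKM in untreated B6 mice. In SLE123 it was 0.253, 0.212 and 0.261 FPKM in treated and 0.451, 0.356 and 0.686 FPKM in untreated mice. The treated B6 mice thus stood above all the others. The NK, B cell and myeloid sums given above were also higher in treated than in untreated B6 mice, and their part in Cd244a was not tested. Ly9 overlaps the span of Cd244a, which is on the opposite strand, with 0 exonic bases shared. In B6, Fyn was lower (-0.14, adjusted p = 0.0338) and the autophagy gene Becn1 higher (0.17, adjusted p = 0.048) after treatment, which made 2 of 18 called (11.1%, against 14.9% of all genes). In SLE123 limma and voom called none. At an unadjusted limma p-value under 0.05, 1 passed, a threshold at which the share of all genes was not counted.

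Genes whose expression or function in T cells is known to depend on SAP were the last list, 11 genes of which 10 were tested. The list was chosen with earlier results of these data known, so its shares are a description. Between untreated strains 8 of the 10 were called, all higher in SLE123, and 8 were higher in treated mice (80.0% in each, against 22.8% and 29.6% of all genes called higher), with median differences of 1.70 and 2.05. Il21, the Tfh cytokine, was 34.7, 23.0 and 33.6 FPKM in untreated SLE123 mice and 0.928, 2.38 and 2.16 FPKM in untreated B6 mice (3.5, SE 0.24, adjusted p = 6.3e-05). Pdcd1, the receptor PD-1, was 129 to 163 FPKM against 10.9 to 15.0 FPKM (3.40, adjusted p = 9e-06).

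The other 6 were Tox2 (2.76), Maf (2.24), the chemokine receptor gene Cxcr5 (1.83), the costimulator gene Icos (1.57), the Tfh transcription factor gene Bcl6 (1.39) and Il4 (1.09). Il4 is also made by basophils, and the sum of 4 basophil markers was 92.3 to 102 FPKM in untreated SLE123 and 2.36 to 2.92 FPKM in untreated B6 mice. Its part in the Il4 difference was not tested. Gata3 (0.28, adjusted p = 0.0999) and Zbtb16, which marks innate-like T cells (-0.41, adjusted p = 0.0771), were not called. In these mice the sum of 4 naive T cell markers was 551 to 958 FPKM in untreated SLE123 and 1507 to 1578 FPKM in untreated B6, and the sum of 4 markers of activated or memory T cells was 394 to 439 against 152 to 176 FPKM. The sum of 4 regulatory T cell markers was 132 to 147 FPKM in untreated SLE123 and 30.5 to 42.5 FPKM in untreated B6 mice. Of these 4 markers, 3 were called higher in SLE123. The part of these shifts in T cell states in the family's strain differences was not tested.

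After anti-CD45RB, limma called 2 of the 10 in B6 (20.0%, against 14.9% of all genes): Cxcr5 was lower (4.65 to 7.14 against 7.75 to 11.3 FPKM, -0.68, adjusted p = 0.0454) and Gata3 higher (27.8 to 31.0 against 22.6 to 23.9 FPKM, 0.30, adjusted p = 0.0129). Bcl6 (4.94 to 5.92 against 6.60 to 7.58 FPKM, -0.31, adjusted p = 0.0534) and Tox2 (1.67 to 3.09 against 3.18 to 5.12 FPKM, -0.76, adjusted p = 0.0545) did not overlap between the groups and missed the threshold. Voom, which called 20.7% of all genes in this comparison, called these 4. In SLE123 limma and voom called none. At an unadjusted limma p-value under 0.05, 1 passed, a threshold at which the share of all genes was not counted.

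**Figure D5:**
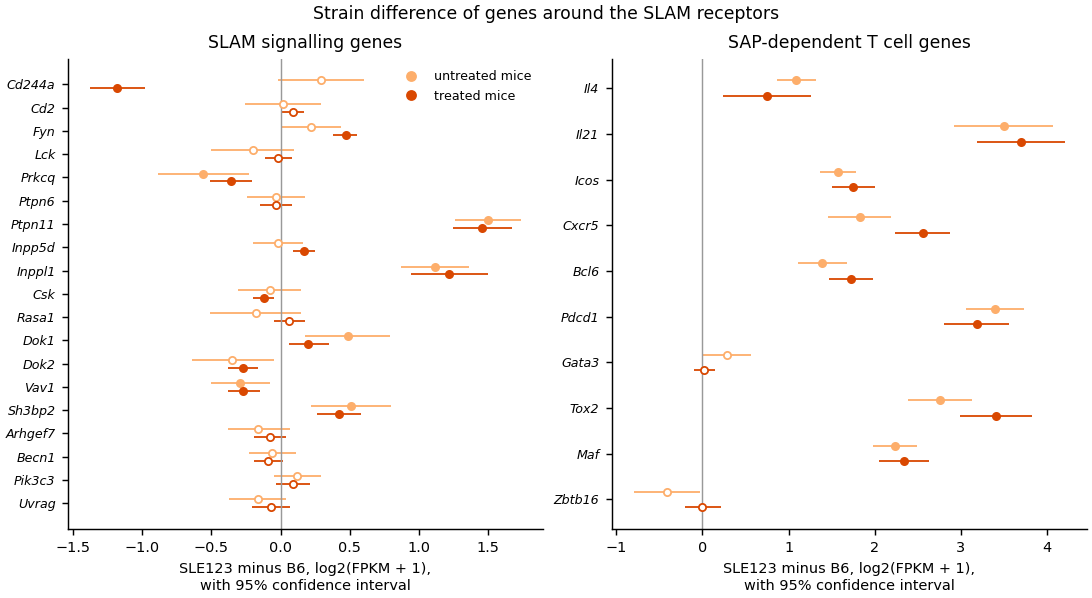
Strain difference in log2(FPKM + 1), SLE123 minus B6 (horizontal axes), with 95% confidence intervals, for the 19 tested genes of SLAM signalling (left) and the 10 tested SAP-dependent T cell genes (right) in untreated and treated mice; filled points have an adjusted p-value under 0.05. Cd244a, which passed the filter only through treated B6, is shown as a description, Ptpn11 and Inppl1 lie above 1 on the left, and 8 of the 10 genes on the right lie at 0.75 or higher in both comparisons.

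The genes closest to each member within groups are given last. The measure was Pearson's r of the deviations from the 4 group means over the 12 mice. It is a description, in which libraries that stand apart carry much weight. The closest genes were picked for the highest r of the 13115 genes tested, a choice that by itself favours high values. Slamf6 and Cd84 followed each other (r = 0.90), and both were highest in untreated SLE123 replicate 1. The genes closest to Cd48 were Itgb2 (r = 0.981), Dglucy (0.946) and P4ha2 (0.927), and those closest to Ly9 were Gtf2i (0.962), Lcp1 (0.952) and Runx3 (0.951). Slamf7 was closest to Sp140 (0.980), Dnajc3 (0.968) and Cdc42bpg (0.967). Slamf9 was closest to Igkv12-38, an immunoglobulin light chain segment (0.962), Ltk (0.960) and Epcam (0.946). Among the nearest genes to Slamf1 were Ttc13 (0.920) and Letm2 (0.916). The nearest to Cd84 were AW554918 (0.984), Tmx4 (0.971) and Dstyk (0.960), and to Sh2d1a Naa80 (0.967), Fopnl (0.959) and Slc25a4 (0.958). Slamf6 was closest to an Ensembl gene without a symbol in GENCODE M21 (0.977), Gm15122 (0.955) and Rnf19a (0.947).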

How the data were processed

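CD4+ T cell mRNA of 12 mice was sequenced, and the authors deposited 1 table of FPKM values per Ensembl gene and library. Per the labels and the submitters' processing notes, CASAVA 1.8, STAR and mm10 were used. The counting program, annotation and strand setting are not given in the sources used here. Symbols and coordinates came from GENCODE M21 (GRCm38), which held 34490 of the 35275 identifiers. FPKM steps gave whole fragments for 100% of the 23230 genes above 0 (tolerance 0.01), and so the total per library. The interval of the Slamf9 fragment ratio and the floors cover counting error only. The confidence intervals of the differences come from limma and rest on the spread between mice.

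Limma 3.58.1 in R 4.3.3 (lmFit, eBayes with a trend) was fitted to log2(FPKM + 1), which understates the change of low genes, on the 6 mice of each comparison and on all 12 for the interaction. It was tested on simulated data. Alternatives were the pseudocount, filter, scaling, spread model, voom, pooling, replicate block and each mouse left out. Rescaling to fragments outside immunoglobulin genes was chosen after seeing the data. The comparisons share groups of mice. Named genes were the members, fixed and called genes of the lists, the 5 neighbours with the smallest adjusted p between untreated strains and the 3 genes most like each member, of which 1 is not reported here. Gata3, Zbtb16, Bcl6 and Tox2 in B6, Pex19, Tagln2 and single markers were named after their values were seen. The members and lists were chosen with earlier results of these data known. Nothing states separate litters, so p-values measure the spread between these mice.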

Additional observations from a re-analysis of the deposited data

Results flagged for a closer look

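The treatment differences of Slamf8 had opposite directions in the 2 strains. All 3 treated B6 mice were above all 3 untreated B6 mice, and all 3 treated SLE123 mice were below all 3 untreated SLE123 mice. In the fit without a filter on low values, which is the one fit that held Slamf8, the interaction was -0.75 on the log2(FPKM + 1) scale (limma, adjusted p = 0.0428). The values rest on 0 to 30 fragments per library. The myeloid sum had the same order, at 39.0 to 113 FPKM in treated and 8.34 to 14.4 FPKM in untreated B6 mice, and at 17.9 to 24.1 FPKM in treated and 31.4 to 74.2 FPKM in untreated SLE123 mice. Its part in the Slamf8 values was not tested.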

How the results depend on the processing

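Counts of members here include Slamf9. Its strain difference is a description with no test, so its place in the counts between strains carries no weight. Between untreated strains, 6 were called (42.9% of all genes), and 3 to 6 with 1 mouse left out (28% to 49.3%). The 3 called without untreated B6 replicate 3 or 5 were Slamf6, Cd48 and Slamf9 (28.3% and 30% of all genes). The 4 called without replicate 4 were these and Sh2d1a (28%). For treatment in B6 the main fit called 4 members, with 14.9% of all genes. The count was 0 with no filter (4.88% of all genes) and 0 with all 12 mice in one fit (6.21%). It was 2 with untrended eBayes (12.5%) and 0 to 2 with 1 mouse left out (5.15% to 10.6%). For the interaction the count was 1 with no filter (Slamf8, with 1.79% of all genes) and 0 to 2 with 1 mouse left out (1.56% to 22.2%). The replicate numbers were examined as a possible pairing. Correlations of the deviations were -0.161 to 0.266 for same-numbered mice and -0.327 to 0.211 for the other pairs. With 3 mice per group these values cannot decide whether the numbers mark pairs, and the main fits did not use them. With a replicate block, 0 members and 0 genes in all were called in B6. The B6 groups share only replicate numbers 3 and 5, so this fit had little left to estimate the spread from. Between treated strains, which share only numbers 1 and 3, the block called the same members as the main fit, with 26% of all genes. In SLE123 and for the interaction it called 0 members. The untreated strains share 1 number, so no block could be fitted there.

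Rescaling to TPM turned the strain difference between untreated mice to -0.046 for Slamf1 and -0.197 for Cd84, and that between treated mice to -0.15 for Ly9. It turned the treatment difference of Sh2d1a in SLE123 to 0.151 and the interaction to 0.021 for Slamf7 and 0.138 for Cd48. Quantile normalization gave -0.084 for Ly9 between treated strains, and -0.022 for Slamf9 and -0.032 for Ly9 in B6. Centring gave -0.008 for Ly9 between treated strains and -0.002 for Slamf6 in SLE123. Rescaling outside immunoglobulin genes gave 0.023 for Ly9 between untreated strains and -0.018 for Slamf6 in SLE123. With 1 mouse left out, Slamf6 in SLE123 ranged from -0.06 to 0.176, Slamf7 from -0.151 to 0.452 and Sh2d1a from -0.111 to 0.078. Ly9 in B6 ranged from -0.015 to 0.051 and the interaction of Slamf7 from -0.448 to 0.155. None of these values was called in the main comparison except Slamf1. The cause was not tested.

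Of all genes called between untreated strains, 53.2% were higher in SLE123, against 24.3% after TPM rescaling, 34.1% after quantile normalization and 67.4% outside immunoglobulin genes. Between treated strains these shares were 56.8%, 35.3%, 35.4% and 66.5%. In B6, 58.8% were higher in treated mice and 48.7% after quantile normalization. Depth limits Slamf8 and, in B6, Slamf9.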
